A study of Homo sapiens with 12 samples.

Results

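The 9 genes described here are members of the interleukin-6 (IL-6) cytokine family and its receptors, 4 ligand genes (IL6, LIF, IL11 and CLCF1) and 5 receptor genes (IL6R, IL6ST, LIFR, OSMR and IL11RA). They were taken by gene symbol from the 58278 genes listed for each of 12 RNA-seq libraries of HK2 cells, an immortalized epithelial line from the proximal tubule of a human kidney, and all 9 were among the 24342 genes with enough counts to be tested. There were 6 groups of 2 biological replicates. Ctrl cells received nothing, and TN cells received TNF-α at 5 ng/mL for 3 h. The other 4 groups received the same TNF-α together with a short-chain fatty acid (SCFA) for 24 h. It was either 15 mM propionate (PRTN, before TNF-α, and TNPR, after it) or 3 mM butyrate (BUTN, before, and TNBU, after). No group received an SCFA without TNF-α, so in these libraries an effect of the SCFA itself and an effect on the TNF-α response cannot be told apart. TN cells were collected at the end of 3 h, so in TNPR and TNBU the later collection and the SCFA cannot be told apart either, and as the SCFA doses differed, neither can compound and dose.

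Cytokines of this family signal through receptor complexes that hold the shared subunit gp130, the product of IL6ST. IL-6 and IL-11 first bind their own receptors, encoded by IL6R and IL11RA, whereas LIF signals through LIFR paired with gp130, and oncostatin M through OSMR or LIFR paired with gp130. CLCF1 acts on cells that carry CNTFR, LIFR and gp130. The complexes activate Janus kinases, which phosphorylate STAT3, and STAT3 induces SOCS3, an inhibitor that switches the signal off again. IL6 and LIF are known targets of NF-κB, the transcription factor activated by TNF-α, and epithelial cells of the injured kidney tubule are known to secrete several of these cytokines.

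The stretches of 250 bases before the transcription start in RefSeq (GRCh38.p14) are shown for 4 genes, the ligand genes IL6 and IL11, which TNF-α raised, and the receptor genes LIFR and IL11RA, the members that were higher in every SCFA group. They were searched on both strands for the κB motif, the AP-1 motif TGANTCA, the cyclic AMP response element TGACGTCA, the STAT palindrome TTCNNNGAA and the TATA box letters TATAAA, and capitals mark the matches. LIFR had 3 RefSeq start records and IL11RA had more than a single record, of which the first listed was read. These data do not tell which start HK2 cells use. Each sequence reads 5′ to 3′ on the strand of its gene.
IL6, chr7:22726950-22727199, plus strand: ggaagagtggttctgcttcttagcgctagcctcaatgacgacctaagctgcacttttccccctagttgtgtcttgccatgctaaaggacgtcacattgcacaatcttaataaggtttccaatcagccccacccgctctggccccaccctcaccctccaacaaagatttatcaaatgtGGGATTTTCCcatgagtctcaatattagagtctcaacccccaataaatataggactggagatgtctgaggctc
IL11, chr19:55370464-55370713, minus strand: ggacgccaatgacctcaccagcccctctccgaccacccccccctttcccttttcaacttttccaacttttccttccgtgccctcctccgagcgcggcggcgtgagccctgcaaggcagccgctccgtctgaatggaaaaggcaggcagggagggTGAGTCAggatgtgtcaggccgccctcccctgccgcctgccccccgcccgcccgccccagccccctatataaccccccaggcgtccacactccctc
LIFR, chr5:38595406-38595655, minus strand: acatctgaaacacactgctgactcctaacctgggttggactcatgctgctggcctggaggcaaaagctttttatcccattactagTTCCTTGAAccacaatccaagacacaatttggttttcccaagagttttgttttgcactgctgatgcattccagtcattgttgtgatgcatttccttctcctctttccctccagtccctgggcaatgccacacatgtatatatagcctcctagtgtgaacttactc
IL11RA, chr9:34653663-34653912, plus strand: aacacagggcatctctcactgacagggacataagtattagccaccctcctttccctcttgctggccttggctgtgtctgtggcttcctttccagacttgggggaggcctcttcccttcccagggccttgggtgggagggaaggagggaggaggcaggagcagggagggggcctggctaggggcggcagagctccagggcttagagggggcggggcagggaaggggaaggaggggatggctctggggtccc
IL6 held a κB match, GGGATTTTCC, 73 to 64 bases before its start. IL11 held an AP-1 match, TGAGTCA, 96 to 90 bases before its start, and LIFR held a STAT palindrome 165 to 157 bases before it. The IL11RA stretch held none of these letters. Of the 7 members with an entry (LIF and CLCF1 are the others), IL6ST had a κB match on the opposite strand 53 to 44 bases before its start, and IL6R and OSMR had no match. Matches of this kind are frequent, since among 35116 promoter stretches of the same length 9.96% held the κB motif, 6.57% the AP-1 motif, 6.57% the STAT palindrome, 10.7% TATAAA and 1.65% the cyclic AMP response element.

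The 12 libraries each held between 27269986 and 33851130 expected counts, and a count of 3 corresponded to 0.0867 to 0.112 CPM, the unit that scales each count to a common library total. TNPR and TNBU replicates differed the most, with a median difference of 0.194 and 0.222 on the log2 scale against 0.113 to 0.149 in the other groups. Of the epithelial markers, KRT8, KRT18 and KRT7 were at 701, 354 and 90.7 CPM or more in every library, while KRT19, EPCAM and CDH1 were as low as 4.47, 13.3 and 0.0745 CPM in some. Of 11 proximal tubule markers, 4 to 6 exceeded a mean of 1 CPM in a group, led by PAX8 and GGT1, while SLC22A6 was at 0 in all libraries and SLC34A1 and LRP2 stayed below 1 CPM. The markers of macrophages and lymphocytes summed to at most 3.47 and 0.512 CPM, and those of endothelial cells to at most 4.24 CPM. A list of 6 fibroblast markers summed to 53.2 to 60.4 CPM without an SCFA and 204 to 255 CPM with one, the 6 epithelial markers to 1210 to 1310 and 1820 to 2420 CPM, and the proximal tubule markers to 576 to 627 and 217 to 251 CPM. The sums were led by few genes, PAX8 (128 to 414 CPM) and GGT1 (60 to 221 CPM) for the proximal tubule and COL1A1 (39.6 to 202 CPM) and LUM (6.09 to 60.7 CPM) for fibroblasts. The number of genes above 1 CPM did not follow them. It was 4 in Ctrl and TN and 5 or 6 in the SCFA groups for the proximal tubule, and 3 in every group for fibroblasts. The shifts in the sums moved with the SCFA groups in which the members differed, and their part in the results was not tested. In such bulk samples, a smaller share of expressing cells and less RNA per cell cannot be told apart.

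TNF-α alone raised 3 of the 4 ligand genes and none of the receptor genes by the call used here, a fold change over 1.5 with an adjusted p under 0.05. IL6 had the largest change of the 9 members. The 3 calls, all of them higher, compare with 0.764% of all tested genes called higher and 0.534% called lower in TN vs Ctrl, and the median change of the 9 members was 0.44 on the log2 scale against -0.01 over all genes.

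IL6 (chromosome 7, 22725884 to 22732002, plus strand) encodes the cytokine that gives the family its name. It was measured at 34.2 and 41.4 CPM in Ctrl and 112 and 109 CPM in TN. The groups did not overlap, and IL6 rose 2.93-fold in TN vs Ctrl (log2 fold change 1.55, standard error (SE) 0.09, adjusted p = 4.26e-06, limma-voom).

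IL11 (chromosome 19, 55364382 to 55370463, minus strand), a cytokine best known for its part in fibrosis and platelet formation, was at 52.6 and 55.9 CPM in Ctrl and 90.4 and 87.7 CPM in TN. It rose 1.64-fold (log2 0.71, SE 0.10, adjusted p = 0.00163). LIF (chromosome 22, 30240453 to 30246759, minus strand), which keeps stem cells undifferentiated and acts in many injured tissues, was at 141 and 144 CPM in Ctrl and 211 and 224 CPM in TN. It rose 1.53-fold (log2 0.61, SE 0.09, adjusted p = 0.00234), just past the fold threshold. Without TN replicate 2 its log2 fold change was 0.57 with an adjusted p of 0.0339, and with scaling to library size alone it was 0.56, both under the threshold.

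CLCF1 (chromosome 11, 67364168 to 67374177, minus strand), a ligand for the CNTF receptor that also stimulates B cells, was the ligand gene without a call in TN vs Ctrl. Its levels were 37.6 and 36.3 CPM in Ctrl and 37.8 and 38.2 CPM in TN (log2 0.04, 95% interval -0.10 to 0.18, adjusted p = 0.833).

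Among the receptor genes, OSMR, IL6R and IL6ST were 1.41, 1.36 and 1.33 times as high in TN as in Ctrl, with adjusted p of 0.000465, 0.0343 and 0.0191. Each of them had both TN libraries above both Ctrl libraries, and each missed the fold threshold. LIFR did not differ between TN and Ctrl beyond the spread of its libraries (log2 fold change -0.005, 95% interval -0.27 to 0.26), and IL11RA was lower in TN without passing the test (log2 -0.54, 95% interval -0.99 to -0.10, adjusted p = 0.191).

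**Figure D1:**
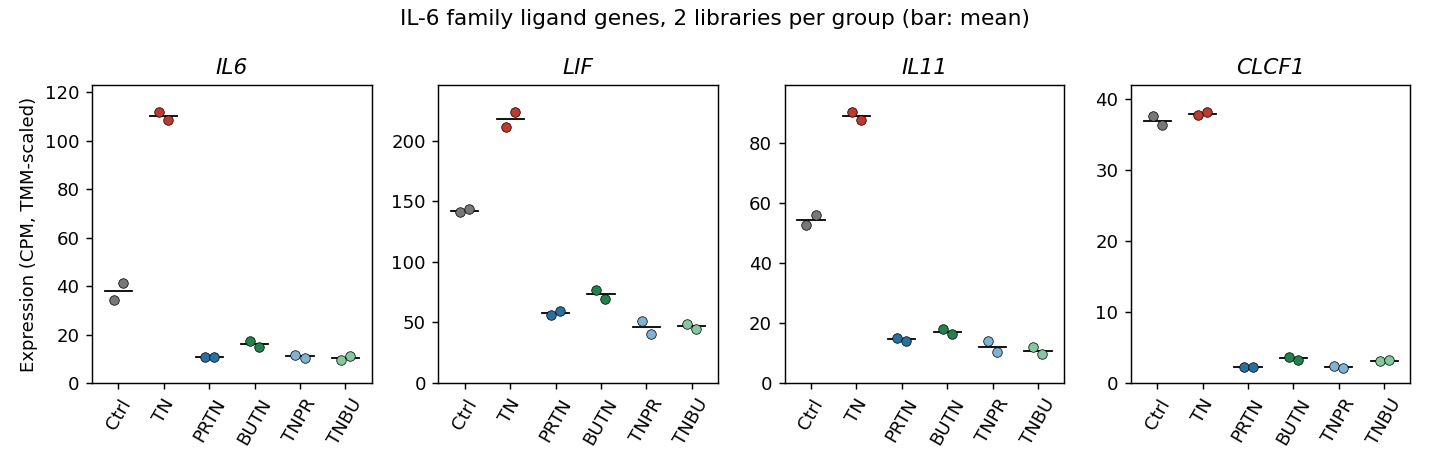
Expression of the 4 ligand genes in CPM scaled by TMM (a scaling between libraries by the trimmed mean of M values), with a point for each library, a bar for the mean of 2 libraries and a vertical axis from 0 in each panel. The TN libraries of IL6 reached 112 and 109 CPM, and all 8 libraries with an SCFA lay below the Ctrl and the TN libraries for every ligand gene.

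With either SCFA, before or after TNF-α, all 4 ligand genes fell below the TN level and also below the Ctrl level. In each of the 4 comparisons with TN, 8 of the 9 members were called, 6 lower and 2 higher, and IL6ST was the exception each time. Calls were frequent among all genes too. In PRTN vs TN 23.9% of all tested genes were called higher and 16.7% lower, and the shares were 23.1% and 14.8% for BUTN vs TN. After TNF-α the shares were 24.9% higher and 16.9% lower for TNPR vs TN, and 25% and 16.5% for TNBU vs TN. The median change of the members was -1.18, -1.03, -1.45 and -1.11 on the log2 scale in these comparisons, against 0.09, 0.08, 0.12 and 0.09 over all genes. The 4 comparisons share the TN libraries, and so their values are not independent of each other.

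Counted on its own, CLCF1 showed the largest fall of the 9 members in each comparison with TN. Its levels were 2.32 and 2.31 CPM in PRTN, 3.63 and 3.29 CPM in BUTN, 2.46 and 2.05 CPM in TNPR and 3.05 and 3.22 CPM in TNBU. CLCF1 thus lay 16.3, 11.0, 16.8 and 12.1 times below TN (log2 -4.03, -3.46, -4.07 and -3.59, SE 0.11 to 0.13), with adjusted p between 3.67e-10 and 6.23e-10. Part of the remaining CLCF1 reads may be shared with a gene on the same strand, ENSG00000256514, whose annotated exons have 61 bases in common with CLCF1 and which held 51.9 to 367 expected counts per library. With the counts of both genes added together, a sum chosen after seeing the data, the mean level was 41.4 CPM in TN and 9.18, 8.91, 11.3 and 9.81 CPM in PRTN, BUTN, TNPR and TNBU, which was 3.66 to 4.65 times below TN. The fall of this sum was smaller than the falls of IL6 and IL11 in every comparison, so that the first place of CLCF1 holds only without the added gene.

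IL6 was measured at 10.6 and 10.7 CPM in PRTN, 17.3 and 14.8 CPM in BUTN, 11.7 and 10.4 CPM in TNPR and 9.69 and 11.2 CPM in TNBU. It fell 10.4-fold, 6.89-fold, 9.97-fold and 10.5-fold from TN (log2 -3.37, -2.78, -3.32 and -3.40, SE 0.10 to 0.12, adjusted p between 4.18e-10 and 1.10e-09). The highest of the 8 libraries with an SCFA, at 17.3 CPM, lay below the lower Ctrl library at 34.2 CPM. Relative to Ctrl, IL6 was 3.53, 2.35, 3.40 and 3.59 times lower (adjusted p between 6.39e-08 and 1.08e-06).

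IL11 was at 15.0 and 14.0 CPM in PRTN, 18.0 and 16.2 CPM in BUTN, 14.1 and 10.2 CPM in TNPR and 11.9 and 9.66 CPM in TNBU. Its falls from TN were 6.13-fold, 5.21-fold, 7.37-fold and 8.32-fold (log2 -2.62, -2.38, -2.88 and -3.06, SE 0.11 to 0.13, adjusted p between 2.06e-09 and 7.47e-09). The levels also lay 3.18 to 5.07 times below Ctrl.

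LIF kept the highest level of the ligand genes, with 56.4 and 59.5 CPM in PRTN, 77.1 and 69.2 CPM in BUTN, 51.6 and 40.3 CPM in TNPR and 48.7 and 44.8 CPM in TNBU. It fell 3.76-fold, 2.98-fold, 4.77-fold and 4.66-fold from TN (log2 -1.91, -1.58, -2.25 and -2.22, SE 0.09 to 0.10, adjusted p between 2.27e-09 and 3.71e-08), and was 1.95 to 3.12 times lower than in Ctrl. LIF had the smallest fall of the ligand genes in each comparison.

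The antisense transcripts of IL6 and LIF were examined as well. IL6-AS1, a long non-coding RNA gene on the opposite strand whose exons overlap those of IL6 by 428 bases, had mean counts of 19.5 in Ctrl, 37.6 in TN and 67.8 to 76.6 in the SCFA groups, and was called higher in each of them vs TN (log2 0.70, 0.70, 0.76 and 0.73, adjusted p between 0.0214 and 0.0341). LIF-AS2 had mean counts of 16.3 in Ctrl, 26.6 in TN and 1.65 to 9.49 in the SCFA groups, and was called lower in each (log2 -2.22, -1.73, -3.02 and -3.81). LIF-AS1, which overlaps LIF exons by 86 bases, had mean counts of 8.05 in Ctrl, 8.57 in TN and 16.6 to 19.3 in the SCFA groups, with log2 fold changes vs TN of 0.86, 0.67, 0.79 and 1.07, of which that in TNBU was called (adjusted p = 0.030). The strand setting of the counting is not given in the sources used here, so that reads of IL6 and LIF and of their antisense genes may not have been told apart. Beside these, IL6 itself held 277 to 552 counts and LIF 1259 to 2463 counts in the libraries with an SCFA.

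Among the receptors that bind a single cytokine, IL6R and IL11RA moved in opposite directions. IL6R (chromosome 1, 154405193 to 154469450, plus strand), the receptor for IL-6, was at 20.1 and 21.3 CPM in Ctrl and 28.2 and 27.9 CPM in TN. It was at 12.6 and 13.7 CPM in PRTN, 14.3 and 14.7 CPM in BUTN, 10.4 and 10.1 CPM in TNPR and 15.0 and 11.3 CPM in TNBU. IL6R fell 2.14-fold, 1.94-fold, 2.73-fold and 2.16-fold from TN (log2 -1.09, -0.95, -1.45 and -1.11, SE 0.11, adjusted p between 3.10e-07 and 7.58e-06). All 8 libraries with an SCFA lay below both Ctrl libraries, but against Ctrl the fall was called in PRTN, TNPR and TNBU and not in BUTN, where it was 1.43-fold. The call in TNBU vs Ctrl was lost without TNBU replicate 2 (log2 -0.47 in place of -0.67).

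IL11RA (chromosome 9, 34652162 to 34661902, plus strand), the receptor for IL-11, had the largest rise of the 9 members in each SCFA comparison. It was at 2.98 and 3.16 CPM in Ctrl and 1.97 and 2.23 CPM in TN, but at 10.6 and 9.35 CPM in PRTN, 11.8 and 10.1 CPM in BUTN, 9.98 and 9.57 CPM in TNPR and 9.98 and 10.9 CPM in TNBU. IL11RA rose 4.71-fold, 5.15-fold, 4.63-fold and 4.95-fold from TN (log2 2.23, 2.37, 2.21 and 2.31, SE 0.17 to 0.18, adjusted p between 2.41e-07 and 3.48e-07), and 3.18-fold to 3.54-fold from Ctrl. The readthrough gene ENSG00000258728, which shares 1706 exon bases with IL11RA, was listed at 0 in all 12 libraries.

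The receptors that carry the signal into the cell divided as well. IL6ST (chromosome 5, 55935095 to 55995022, minus strand), which encodes gp130, was the member with the least change in the SCFA comparisons. It was at 141 and 146 CPM in Ctrl, 196 and 187 CPM in TN, 165 and 162 CPM in PRTN, 154 and 155 CPM in BUTN, 153 and 149 CPM in TNPR and 165 and 132 CPM in TNBU. All 8 libraries with an SCFA lay below the TN libraries, and their range included both Ctrl libraries. The log2 fold changes from TN were -0.23, -0.31, -0.34 and -0.37 (adjusted p = 0.0332, 0.00718, 0.00383 and 0.00209), each short of 1.5-fold. With scaling to library size alone they were -0.07, -0.16, -0.17 and -0.18 (adjusted p = 0.475, 0.127, 0.103 and 0.0827), and without TNBU replicate 1 or 2 the change in TNBU was -0.57 or -0.23. The adjusted p of PRTN vs TN also passed 0.05 without TN replicate 1 (0.112) and without PRTN replicate 1 (0.0613) or 2 (0.0874). Against Ctrl the 95% intervals reached from -0.15 to 0.37 over the 4 comparisons, which leaves no room for a 1.5-fold change in these fits.

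LIFR (chromosome 5, 38474668 to 38608354, minus strand), the receptor subunit for LIF that also serves CLCF1, was at 8.68 and 7.89 CPM in Ctrl and 7.93 and 8.58 CPM in TN. It was at 20.7 and 19.6 CPM in PRTN, 20.1 and 20.6 CPM in BUTN, 18.6 and 19.3 CPM in TNPR and 19.6 and 17.0 CPM in TNBU. LIFR rose 2.44-fold, 2.46-fold, 2.30-fold and 2.21-fold from TN (log2 1.29, 1.30, 1.20 and 1.14, SE 0.10 to 0.11, adjusted p between 4.25e-07 and 1.49e-06), and the rises from Ctrl were of nearly the same size, 2.20-fold to 2.45-fold.

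OSMR (chromosome 5, 38845858 to 38945596, plus strand), the subunit for oncostatin M, lies 237503 bases from LIFR with no protein-coding gene between them, and it moved the other way. It was at 168 and 178 CPM in Ctrl and 245 and 242 CPM in TN, and at 104 and 111 CPM in PRTN, 119 and 119 CPM in BUTN, 121 and 125 CPM in TNPR and 130 and 124 CPM in TNBU. OSMR fell 2.27-fold, 2.05-fold, 1.98-fold and 1.92-fold from TN (log2 -1.18, -1.03, -0.99 and -0.94, SE 0.06, adjusted p between 6.77e-09 and 4.35e-08). All 8 SCFA libraries lay below the Ctrl libraries, although against Ctrl the fall passed the fold threshold in PRTN (1.61-fold) and not in BUTN, TNPR and TNBU (1.36-fold to 1.45-fold). RICTOR, on the opposite strand, shares 229 exon bases with OSMR and was 0.38 to 0.48 lower on the log2 scale in the SCFA groups, under the fold threshold.

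**Figure D2:**
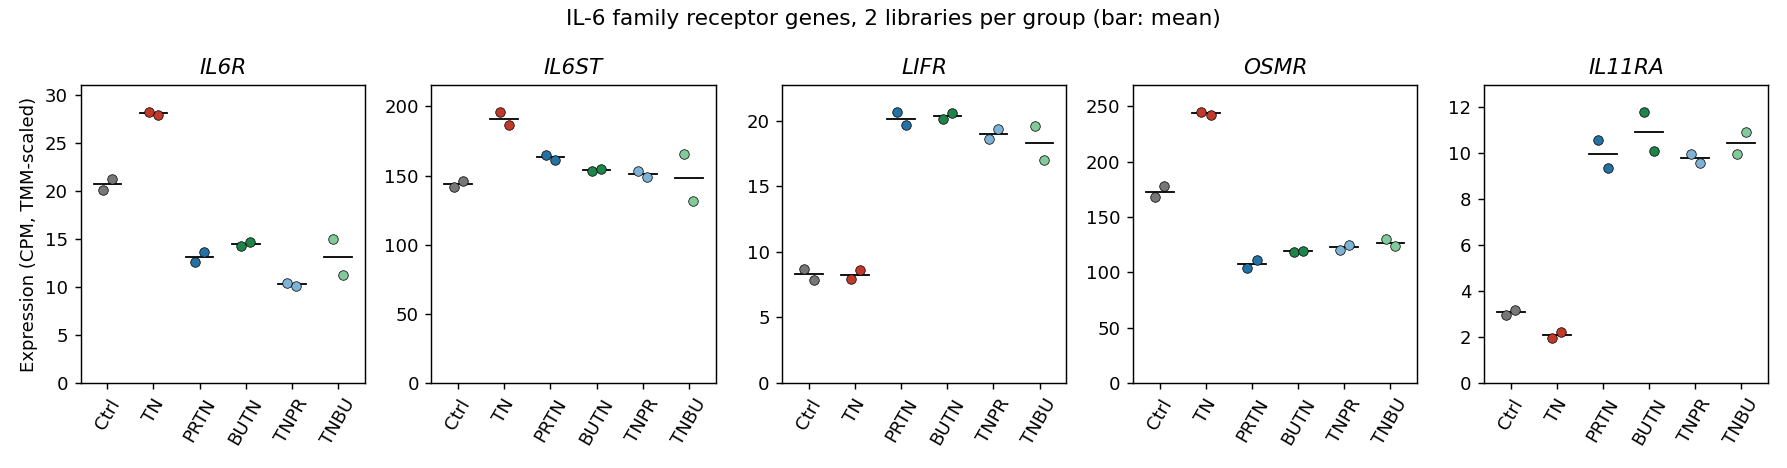
Expression of the 5 receptor genes in CPM scaled by TMM, with a point for each library, a bar for the mean of 2 libraries and a vertical axis from 0 in each panel. IL6R and OSMR lay lower, and LIFR and IL11RA higher, in all 8 libraries with an SCFA than in the 4 libraries without one, while the IL6ST libraries with an SCFA, at 132 to 165 CPM, spanned the Ctrl level.

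Counted against Ctrl, the calls were 2 higher and 6 lower in PRTN, 2 higher and 4 lower in BUTN, and 2 higher and 5 lower in both TNPR and TNBU. Over all genes, 22.6% were called higher and 16.9% lower in PRTN vs Ctrl, 22% and 14.9% in BUTN vs Ctrl, 23.6% and 16.8% in TNPR vs Ctrl, and 23.6% and 16.5% in TNBU vs Ctrl. LIFR and IL11RA made up the higher calls each time, and the 4 ligand genes were among the lower calls each time. For PRTN, BUTN, TNPR and TNBU the median change of the members vs Ctrl was -0.69, -0.54, -1.01 and -0.67 on the log2 scale, against 0.06 to 0.09 over all genes. These comparisons share the Ctrl libraries.

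**Figure D3:**
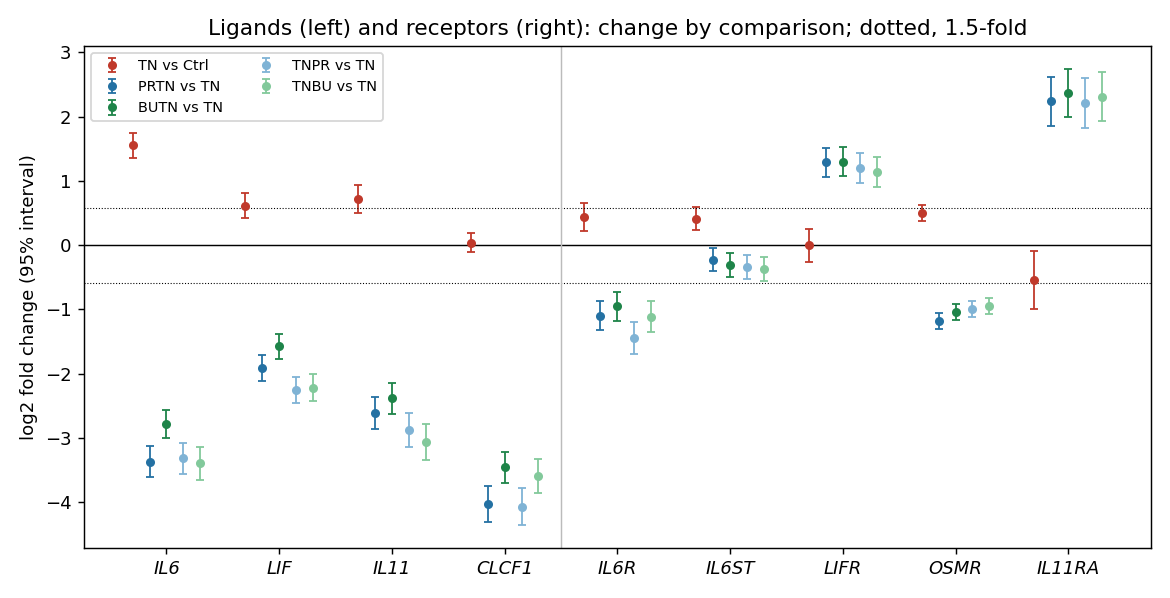
The log2 fold change of each member with its 95% interval from limma-voom, ligand genes on the left and receptor genes on the right, for TN vs Ctrl and the 4 SCFA groups vs TN, with dotted lines at a 1.5-fold change. Intervals of the ligand genes, IL6R and OSMR lie wholly below 0 in the SCFA comparisons, those of LIFR and IL11RA wholly above 0, and those of IL6ST between 0 and the lower dotted line.

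Levels can be compared between genes when they are divided by gene length, here the CPM per kilobase of annotated exon. In Ctrl the order was LIF at 36.8, OSMR at 24.1, IL11 at 20.3, CLCF1 at 20.1, IL6ST at 11.9, IL6 at 8.74, IL6R at 2.95, LIFR at 0.681 and IL11RA at 0.584 CPM per kilobase. The library ranges of IL11 and CLCF1 overlapped, and the other neighbours were apart. In TN the upper places were LIF at 56.2, OSMR at 33.97, IL11 at 33.2 and IL6 at 25.5 CPM per kilobase, so that IL6 moved above CLCF1 (20.7) and IL6ST (15.9). That move depends on the length used. Per kilobase of mean transcript length IL6 was above both already in Ctrl, at 32.7 against 27.7 for CLCF1 and 26.8 for IL6ST.

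In the SCFA groups OSMR, LIF and IL6ST shared the upper places, between 11.9 and 18.9 CPM per kilobase, and IL11 and IL6 followed at 4.02 to 6.39 and 2.42 to 3.72. OSMR and LIF overlapped in PRTN, and LIF and IL6ST overlapped in TNPR and TNBU. CLCF1 dropped to the last place in PRTN and TNPR, at 1.26 and 1.23 CPM per kilobase, and to the last but one in BUTN and TNBU, at 1.89 and 1.71. The 4 lower genes lay close together there, since IL6R and IL11RA overlapped in PRTN, BUTN and TNBU. With the mean transcript length in place of the exon length, OSMR came first in every group.

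**Figure D4:**
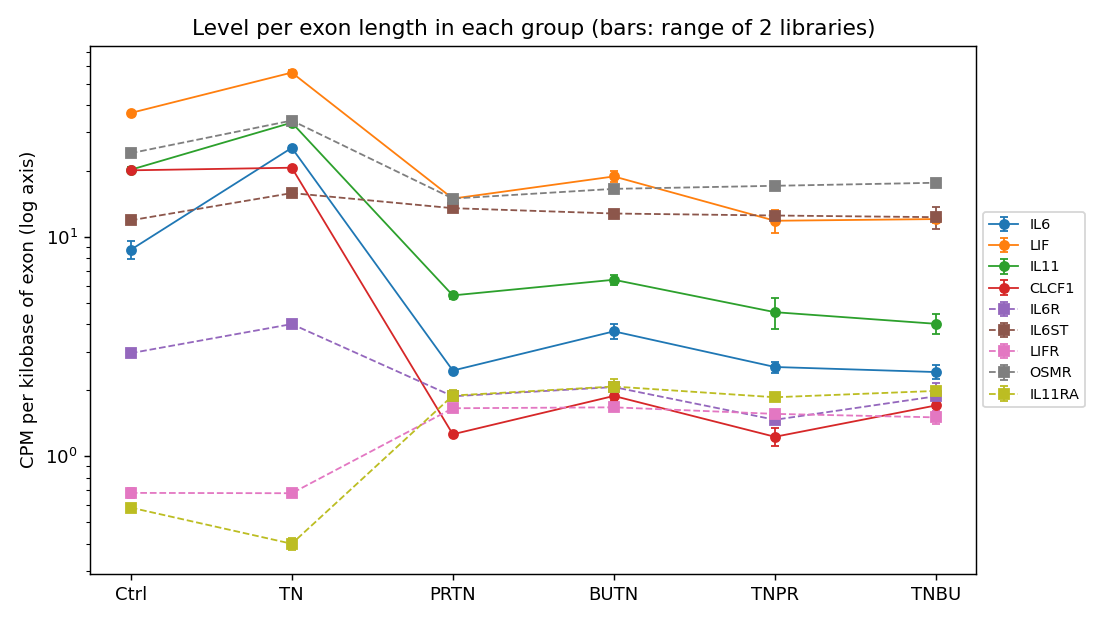
Level of each member in each group as CPM per kilobase of exon on a log axis, with the mean as a symbol (circles and solid lines for ligand genes, squares and dashed lines for receptor genes) and a bar for the range of 2 libraries. CLCF1 runs from 20.7 in TN to between 1.23 and 1.89 in the SCFA groups. LIFR and IL11RA climb from the lowest places to near the level of IL6R, which itself falls, and LIFR stays below IL6R in PRTN and BUTN. The lines only join the groups and do not mark a time course.

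Ratios of these levels within a library do not depend on the scaling between libraries. Their size does depend on the gene length used, here the annotated exon length, whereas their change between groups does not. OSMR was 32.7 and 38.3 times LIFR in Ctrl and 52.3 and 47.9 times in TN, but 8.52 to 12.3 times in the 8 libraries with an SCFA. IL11 was 34.7 times IL11RA in both Ctrl libraries, 89.9 and 77.3 times in TN and 1.74 to 3.15 times with an SCFA. LIF was 51.1 and 57.2 times LIFR in Ctrl, 83.7 and 81.9 times in TN and 6.54 to 12 times with an SCFA. The ratio of IL6 to IL6R, both of which fell, moved less, from 2.76 and 3.15 in Ctrl and 6.42 and 6.3 in TN to between 1.04 and 1.96. These 4 ratios were highest in TN and lowest with an SCFA, with no overlap between libraries. The ratio of the shared subunit IL6ST to IL6R went the other way, with 4.09 and 3.98 in Ctrl, 4.03 and 3.88 in TN and 6.12 to 8.55 in the 8 libraries with an SCFA. The 5 ratios themselves were not tested.

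The propionate and butyrate groups, whose doses differed (15 mM and 3 mM), were compared directly as well. PRTN vs BUTN had 0 members called with limma-voom, where 0.168% of all genes were called, and 4 members had an unadjusted p under 0.05. The largest differences were in IL6, 0.59 lower on the log2 scale in PRTN (95% interval -0.86 to -0.31, adjusted p = 0.0631), and CLCF1, 0.57 lower (95% interval -0.91 to -0.24, adjusted p = 0.120). For IL6 the edgeR and DESeq2 tests put the same difference past the threshold (adjusted p = 0.0443 and 0.00135). LIFR had an interval of -0.19 to 0.17, IL11RA of -0.36 to 0.10 and IL6ST of -0.10 to 0.26.

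When the SCFA was given after TNF-α, TNPR vs TNBU also had 0 members called (0.00822% of all genes), by edgeR and DESeq2 as well, with an unadjusted p under 0.05 for 2 members. These were CLCF1, 0.48 lower in TNPR (95% interval -0.83 to -0.12, adjusted p = 0.451), and IL6R, 0.34 lower (95% interval -0.61 to -0.07, adjusted p = 0.489). The IL6 difference was 0.08, with an interval of -0.22 to 0.38.

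The groups given the SCFA after TNF-α were also collected later after TNF-α, so the order of treatment and that time cannot be told apart. Between the orders of treatment, LIF was the member called. It was 1.56 times lower in TNBU than in BUTN (log2 -0.64, 95% interval -0.87 to -0.42, adjusted p = 0.0145), where 0.267% of all genes were called. IL11 and IL6 had differences of like size in the same comparison, -0.67 and -0.61, with adjusted p of 0.0534 and 0.0557. The LIF call was lost without either BUTN library, without TNBU replicate 2 and in a fit of the BUTN and TNBU groups alone (adjusted p = 0.123), and edgeR and DESeq2 called all 3 genes.

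TNPR vs PRTN had 0 members called (0.16% of all genes), by edgeR and DESeq2 as well, and 3 members had an unadjusted p under 0.05. LIF was 0.34 lower in TNPR (95% interval -0.57 to -0.12, adjusted p = 0.240), IL6R 0.35 lower and OSMR 0.19 higher. The test of the difference between TNBU vs BUTN and TNPR vs PRTN gave 0 members called and 0% of all genes with limma-voom, with an unadjusted p under 0.05 for 935 genes, and edgeR and DESeq2 called 1 and 4 genes. IL6 was the member with an unadjusted p under 0.05, at -0.66 on the log2 scale (95% interval -1.07 to -0.26, adjusted p = 1). Without PRTN replicate 2, limma-voom called 10 genes for this difference, none of them a member.

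The partners of these members in the same family were examined next, from lists of genes chosen by pathway. Of 6 further ligand and ligand subunit genes, 3 passed the filter on low counts, and none was called in TN vs Ctrl. In that comparison 0.764% of all genes were called higher and 0.534% lower. Nothing is read from an absence of calls there in lists this short, here and below. Against TN, 1 was lower in PRTN and TNPR, 2 were lower in BUTN and TNBU, and none was higher. Over all genes 14.8% to 16.9% were called lower and 23.1% to 25% higher, and nothing is read from the counts of this list. EBI3, a subunit of IL-27, fell from 24.9 CPM in TN to 11.9 to 14.4 CPM (log2 -1.07, -0.79, -1.09 and -0.80). CNTF, a ligand of the same receptor as CLCF1, had group means of 1.095 to 1.87 CPM and was called lower in BUTN and TNBU (log2 -0.64 and -0.79). In PRTN and TNPR its log2 fold change was -0.53, without a call. OSM, the gene of oncostatin M, which is named here after its values were seen because it is the ligand of OSMR, had 0 to 5 counts in a library and no call. CTF1, IL27 and IL31 did not pass the filter.

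The 3 further receptor genes were CNTFR, IL27RA and IL31RA, and none was called in TN vs Ctrl. CNTFR, the receptor of CLCF1 and CNTF, averaged 0.0523 and 0.0725 CPM in Ctrl and TN, under 3 counts a library, and 0.462 to 0.869 CPM in the SCFA groups, where it was called higher in each comparison with TN (adjusted p between 0.000172 and 0.00209). It stayed under 1 CPM. IL27RA, the receptor of IL-27, fell from 13.0 CPM in TN to 4.35 to 7.59 CPM (log2 -1.09, -0.78, -1.58 and -1.38). IL31RA, which pairs with OSMR for IL-31 and whose gene lies 12240 bases from IL6ST, was at 4.11 CPM in TN and 6.05 to 6.51 CPM with an SCFA. It rose in PRTN, TNPR and TNBU (log2 0.61, 0.65 and 0.62) and was not called in BUTN (0.55).

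Of the 7 kinases, phosphatase and STATs tested, none was called in TN vs Ctrl, and 2 rose and 3 fell in PRTN and in BUTN vs TN, and 2 rose and 4 fell in TNPR and in TNBU vs TN. Over all genes 23.1% to 25% rose and 14.8% to 16.9% fell in these comparisons, and the median change of the list was -0.55, -0.57, -0.67 and -0.67 on the log2 scale. JAK1, the kinase most used by gp130, fell from 1142 CPM in TN to 419 to 441 CPM (log2 -1.45, -1.38, -1.45 and -1.45, SE 0.07). STAT3, the main mediator of gp130 signals, rose from 101 CPM to 189 to 215 CPM (log2 1.03, 0.90, 1.09 and 0.99, SE 0.07). PTPN11, which encodes the phosphatase SHP2 that binds gp130, was called lower in TNPR and TNBU (log2 -0.67 in both). In PRTN and BUTN its log2 fold changes were -0.55 and -0.57, just under the fold threshold. STAT5B, a STAT best known from growth hormone signals, fell from 40.1 CPM to 18.8 to 24.0 CPM (log2 -0.995, -0.74, -1.10 and -0.89).

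Among 8 feedback inhibitors, none was called in TN vs Ctrl. In PRTN and in BUTN vs TN 1 rose and 2 fell, and in TNPR and in TNBU vs TN 2 rose and 2 fell, beside the shares over all genes (23.1% to 25% higher and 14.8% to 16.9% lower). The median change of the list was 0.10, 0.09, -0.24 and -0.07 on the log2 scale. PTPN1, a phosphatase of Janus kinases, rose in all 4 comparisons (log2 0.84, 0.72, 0.95 and 0.90). SOCS3, the inhibitor that binds gp130, was at 40.6 and 32.5 CPM in the Ctrl and TN groups and 48.3 and 38.4 CPM in the PRTN and BUTN groups, and was called higher in TNPR and TNBU, at 68.5 and 63.3 CPM (log2 1.07 and 0.96, SE 0.09). In PRTN and BUTN the log2 fold changes of SOCS3 were 0.57 and 0.24, under the fold threshold. CISH and SOCS2, both targets of STAT5, fell in all 4 comparisons, by 0.88 to 1.30 and 1.23 to 1.73 on the log2 scale. Of the 4 genes for receptor shedding, ADAM17, the protease that releases soluble IL-6 receptor, was called lower in PRTN, TNPR and TNBU (log2 -0.62, -0.79 and -0.75) and the other 3 were called in none of the 5 comparisons. In BUTN the log2 fold change of ADAM17 was -0.48, under the fold threshold.

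STAT3 targets and acute phase genes did not move in a single direction. Of 20 genes on the list 18 were tested, with 1 higher in TN vs Ctrl. Against TN, propionate given before had 5 of these genes higher and 2 lower (PRTN), butyrate given before 6 and 2 (BUTN), propionate given after 5 and 3 (TNPR) and butyrate given after 6 and 4 (TNBU). Over all genes the shares were 23.1% to 25% higher and 14.8% to 16.9% lower in these comparisons, and nothing is read from the numbers for this list. The median change of the list was -0.09, -0.03, -0.26 and -0.27 on the log2 scale, and that of all genes 0.09, 0.08, 0.12 and 0.09. SAA1 and SAA2, genes of the acute phase protein serum amyloid A, rose from 153 and 95.2 CPM in TN to 1013 and 653 CPM in PRTN, 1130 and 689 CPM in BUTN, 2371 and 1613 CPM in TNPR and 2630 and 1755 CPM in TNBU. These are near-identical neighbouring copies, and the division of reads between them is uncertain. CCND1, which encodes cyclin D1, was the gene called in TN vs Ctrl (log2 0.64, SE 0.07, adjusted p = 0.000406) and was called in none of the SCFA groups vs TN. JUNB, an AP-1 subunit, was called lower in TNBU (log2 -0.71, adjusted p = 0.0171). In PRTN, BUTN and TNPR its log2 fold changes were -0.12, -0.57 and -0.47, without a call.

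Of 9 genes for regulators of IL6 mRNA, none was called in TN vs Ctrl. Against TN, 2 were higher and 1 lower with PRTN, 1 higher and 2 lower with BUTN, 1 higher and 3 lower with TNPR, and 1 higher and 4 lower with TNBU, beside shares over all genes of 23.1% to 25% higher and 14.8% to 16.9% lower. The median change of the list was -0.10, -0.14, -0.39 and -0.35 on the log2 scale. ZC3H12A encodes regnase-1, a nuclease that degrades IL6 mRNA. It fell along with IL6, from 188 CPM in TN to 69.1 to 82.6 CPM (log2 -1.24, -1.19, -1.47 and -1.39, SE 0.12). NFKBIZ, whose product IκBζ promotes IL6 transcription, was called lower in TNPR and TNBU (log2 -0.74 and -0.67) and was not called in PRTN and BUTN (log2 -0.40 and -0.21). ZFP36L1, a factor that destabilizes mRNAs, was called lower in TNBU (log2 -0.60), and RC3H1, which encodes roquin-1, in BUTN, TNPR and TNBU (log2 -0.62, -0.59 and -0.59). Under the fold threshold were ZFP36L1 in PRTN, BUTN and TNPR (log2 -0.27, -0.22 and -0.57) and RC3H1 in PRTN (-0.50).

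**Figure D5:**
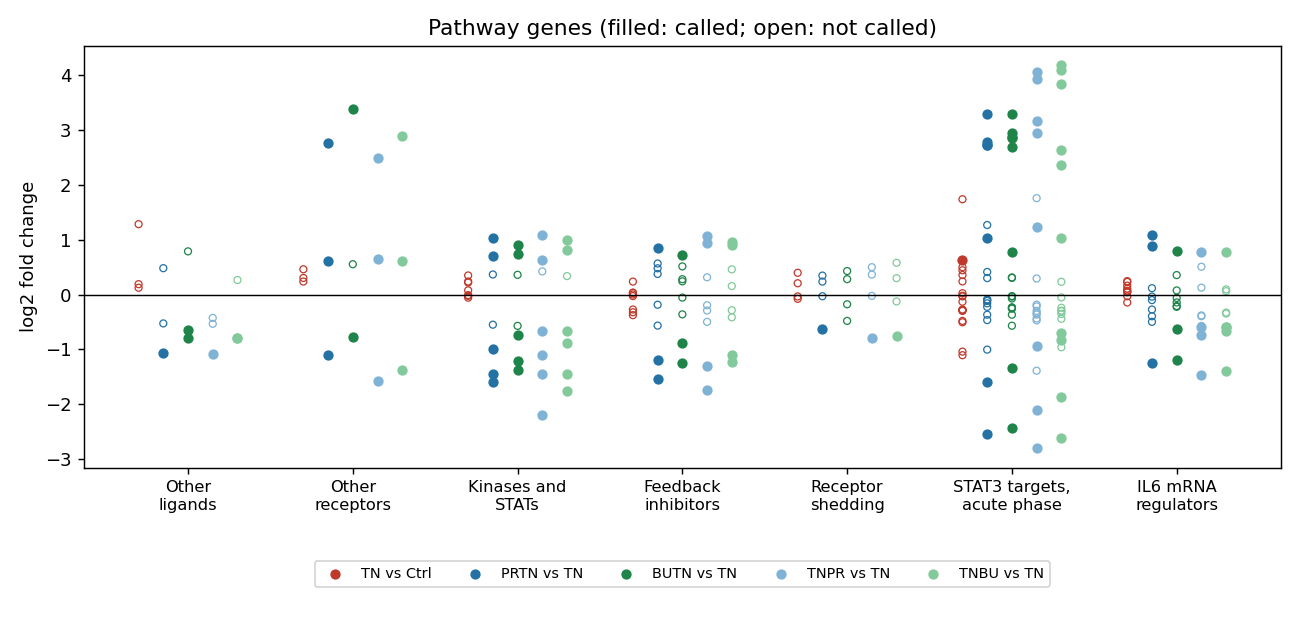
The log2 fold change of the tested genes reported from the 7 pathway lists, in columns for TN vs Ctrl and the 4 SCFA groups vs TN, with filled circles for called genes and open circles for the others. CNTFR stands highest among the other receptors in the SCFA groups, CCND1 is the single called gene of TN vs Ctrl, and the STAT3 target and acute phase genes spread from below -2 to above 4.

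The genes whose levels followed those of a member most closely were sought over the 12 libraries, by Pearson's r on the log2 scale among genes of at least 1 CPM. COPS3 (r = 0.999), SLC25A37 and SOD2 came first for IL6, PML (r = 0.995), CSF1 and RIPK2 for LIF, EVA1A (r = 0.997), TTC27 and CSF1 for IL11, and IRX4 (r = 0.998), PPP1R14B and ANXA4 for CLCF1. The receptors were followed by RNF138, TAF5L and SEH1L for IL6R (r from 0.996 to 0.986), RIOX2, CD44 and SDCBP for OSMR (r from 0.989 to 0.986), PLCXD2, KREMEN1 and GDPD1 for LIFR (r from 0.997 to 0.995) and C1QL4, ESPN and ITGA7 for IL11RA (r = 0.996 for each). MAK16, KIAA1586 and SEC24A were closest to IL6ST, at r of 0.953 to 0.940. The libraries with and without an SCFA form separate sets, and a high r was therefore common: 1538 to 3724 genes exceeded 0.9 for the other members, against 18 for IL6ST.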

How the data were processed

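Expected counts per gene, as deposited for each of the 12 libraries, were made by the authors from stranded mRNA reads aligned to GRCh38 with STAR 2.6.1a and counted with RSEM on GENCODE annotation, with FastQC 0.11.5 named in the submitters' processing notes. They are neither scaled nor filtered, and replicates were not pooled. Groups came from the sample labels. Counts were tested unrounded with limma 3.58.1 (voom, a mean for each of the 6 groups, R 4.3.3) and TMM factors of edgeR 4.0.16. Genes were kept where the geometric mean of the count plus 1, minus 1, was at least 1, which removed 33936 genes, and p-values were adjusted by Benjamini-Hochberg over the 24342 kept. Intervals are 95% intervals of the fit, with 12.1 degrees of freedom. Depth intervals and floors of 3 counts cover counting error only.

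DESeq2 1.42.0, edgeR's quasi-likelihood test (both on rounded counts), other scalings, filters, fold thresholds, samples and the replicate number as a block were alternatives. On simulated counts of 24342 genes for TN vs Ctrl, 95% of 2-fold and 99% of 4-fold changes were recovered, with 4 false calls. The changes were placed in 200 genes, none of them of low count, and between no other groups. Smaller changes, such as those of LIF and IL11, and changes in genes of few counts were not simulated. Positions and exon lengths came from GENCODE release 44, in which 57392 of 58278 identifiers were found, and promoters from RefSeq, which held 7 of the 9 members. Of each pathway list, at most 4 genes are named, the called genes with the highest mean CPM, and some items on the lists are not reported here. The members, lists and tests were chosen with earlier results of these data known. Replicates with the same number did not deviate together, with correlations of -0.0458 to 0.109 over 15 pairs of groups. The general treatment text of the labels names agents that appear in no sample's own label, and those were not used.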

Additional observations from a re-analysis of the deposited data

How the results depend on the processing

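Of 79 fold changes of members that passed the call in any setting, none reversed in 1859 alternative values, and 54 stayed on the same side of the call throughout. A further 47 were never called, and 20 of these, all below 0.2 in size, changed sign. TN vs Ctrl had 3 members called, 6 by adjusted p alone and 1 above 2-fold. PRTN vs BUTN went from 0 to 1 (IL6) with edgeR, with DESeq2 and with a literal geometric mean filter, to 2 (IL6 and CLCF1) without the TNPR and TNBU groups, an alternative chosen after seeing the data, and to between 0 and 1 with a library left out (1 without either TNBU library). TNBU vs BUTN went from 1 to 3 with edgeR, DESeq2 and the literal geometric mean, to 0 in a fit of only the groups compared and above 2-fold, and to between 0 and 3 with a library left out (0 without BUTN replicate 1 or 2 or TNBU replicate 2, 2 without TNBU replicate 1, 3 without either TNPR library). With the replicate block it was 2 members (LIF and IL11). The block changed no other count of members. IL6ST was called in no setting with a fold threshold. Its log2 fold changes in the SCFA groups vs TN were -0.07 to -0.18 with library size alone, in place of -0.23 to -0.37. In TNBU vs TN the value was -0.57 or -0.23 without TNBU replicate 1 or 2. IL6R lost its call vs Ctrl with library size alone in PRTN (log2 -0.55) and TNBU (-0.53). That scaling moved all genes by 0.15 to 0.20 on the log2 scale in the SCFA groups vs TN, and the share of calls that were higher from 60.9% to 71.2% in BUTN, 59.6% to 69.8% in TNPR and 60.2% to 72% in TNBU vs TN, and from 58.9% to 44.3% in TN vs Ctrl. The cause of these changes was not tested.

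With all libraries of the groups kept, calls over all genes ranged from 107 (above 2-fold) to 854 (adjusted p alone) for TN vs Ctrl. The main setting used here gave 316, a number of these fits and not of the study. The ranges, with the main setting in brackets, were 6 to 190 for PRTN vs BUTN (41) and 0 to 13 for TNPR vs TNBU (2). They were 7 to 64 for TNPR vs PRTN (39), 4 to 190 for TNBU vs BUTN (65) and 0 to 4 for the difference of differences (0). With a library left out the counts ranged further in all of these but TN vs Ctrl and TNPR vs TNBU. For the SCFA groups vs TN or Ctrl every setting stayed within 1.5 times. The order per kilobase changed at up to 8 of 9 places in a group with mean transcript length.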

Other observations

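Several further genes on the lists of STAT3 targets and of kinases and STATs had clear changes but lower levels than those named above, and they are given here after their values were seen. The fibrinogen genes, whose 3 chains form a single protein, moved in different directions. FGB fell from 21.0 CPM in TN to 6.95, 8.29, 4.86 and 5.72 CPM in PRTN, BUTN, TNPR and TNBU (log2 -1.60, -1.34, -2.11 and -1.87). FGA rose from 0.275 CPM in TN to 2.84, 2.86, 2.28 and 1.81 CPM (log2 3.29, 3.30, 2.94 and 2.64), and FGG, under 1 CPM in every group and with 0 and 3 counts in the TN libraries, was called higher in PRTN, BUTN and TNBU vs TN (adjusted p = 0.0126, 0.00825 and 0.0302). In TNPR vs TN the log2 fold change of FGG was 1.76, without a call. CEBPD, a transcription factor of the acute phase response, fell from 34.1 CPM in TN to 4.87 to 6.28 CPM (log2 -2.55, -2.44, -2.81 and -2.61), while SAA1 and SAA2 rose. BCL6, a repressor that STAT3 induces in other cells, rose from 11.1 CPM to 19.0 to 26.1 CPM (log2 1.03, 0.78, 1.23 and 1.04). STAT5A fell from 20.3 CPM to 4.45 to 8.79 CPM (log2 -1.60, -1.21, -2.19 and -1.77), next to the falls of CISH and SOCS2. JAK2 rose from 2.73 CPM to 4.22 to 4.81 CPM (log2 0.70, 0.74, 0.63 and 0.82) while JAK1 fell.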
